A study of Mus musculus with 4 samples.

Results

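The microRNA genes of the miR-290 and miR-302 clusters were followed in male and female mouse primordial germ cells at embryonic day 12.5. The 10 genes were chosen by name: Mir291a, Mir291b, Mir293, Mir294 and Mir295 of the miR-290 cluster on chromosome 7, and Mir302a, Mir302b, Mir302c, Mir302d and Mir367 of the miR-302 cluster on chromosome 3. Each of the 5 miR-302 cluster genes had a transcript cluster (the set of array probes summarised to 1 value) of its own. The 5 miR-290 cluster genes did not: the platform annotation placed all of them in a single transcript cluster, together with Mir292 and the long noncoding host RNA D7Ertd143e. The 10 genes were therefore read through 6 values, among 30738 genes with a transcript cluster of their own, 921 of which were microRNA genes. The value on chromosome 7 is called the shared miR-290 value below, and it cannot be divided among its 7 annotated genes.

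All samples were germ cells of embryos homozygous for a floxed allele of Max, which encodes the partner protein of MYC and of MGA, on a strain labelled C57/BL6. Group F was female and group M male, both without a Cre transgene. Groups FC (female) and MC (male) carried in addition Oct4-CreERT2, a tamoxifen-activated Cre recombinase under the distal enhancer of Oct4, which is active in the germ lineage. Embryos of all 4 groups received tamoxifen at E8.5, and germ cells were taken from the genital ridges at E12.5 with magnetic beads against SSEA-1. Each group was 1 array, the number of embryos behind an array is not given in the sources used here, and a difference between any 2 arrays therefore has no replicate check. Max itself gave log2 signals, the scale used throughout, of 10.75 (F) and 10.31 (FC) in females and 10.64 (M) and 10.33 (MC) in males, so that the difference with CreERT2 was -0.44 and -0.31.

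MicroRNAs are cut from long primary transcripts, first in the nucleus by Drosha with Dgcr8 and then in the cytoplasm by Dicer, and the mature strand guides an Argonaute protein to messenger RNAs that pair with its seed, bases 2 to 8. The miR-290 and miR-302 clusters are the characteristic microRNAs of mouse pluripotent cells, miR-290 in the naive state and miR-302 in the primed state, and in embryonic stem cells they are known to hasten the passage from G1 to S phase by restraining inhibitors such as Cdkn1a. The miR-290 cluster is also expressed in primordial germ cells, and mice without it are known to lose germ cells. The arrays were hybridised with labelled total RNA, so that a signal can come from a primary transcript, a hairpin or a mature strand. These forms cannot be told apart here, the type of array is not settled by the sources, and the column kit used for the RNA is of a type that retains little RNA of the size of a mature microRNA.

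The mature 3p strands show what the 2 clusters have in common and where single members depart from it. They were taken from RefSeq, assembly GRCm38.p6, which held the 3p strand of 9 of the 10 genes and the 5p strand of Mir302a. They are written 5′ to 3′ with the seed in capitals, each with its position, all on the plus strand.
miR-291a-3p: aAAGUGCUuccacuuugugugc at chr7:3218968-3218989
miR-294-3p: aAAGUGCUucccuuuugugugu at chr7:3220691-3220712
miR-295-3p: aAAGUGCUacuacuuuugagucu at chr7:3220815-3220837
miR-302b-3p: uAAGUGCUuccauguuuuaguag at chr3:127545275-127545297
miR-302d-3p: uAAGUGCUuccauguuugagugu at chr3:127545665-127545687
miR-291b-3p: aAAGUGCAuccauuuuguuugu at chr7:3219529-3219550
miR-302c-3p: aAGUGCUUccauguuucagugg at chr3:127545406-127545427
miR-293-3p: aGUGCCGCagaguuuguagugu at chr7:3220390-3220411
miR-367-3p: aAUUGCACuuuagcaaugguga at chr3:127545779-127545800
miR-302a-5p: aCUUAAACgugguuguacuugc at chr3:127545501-127545522

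The first 5 of these strands, 3 from chromosome 7 and 2 from chromosome 3, carried the same seed, AAGUGCU. No other gene had it among the strands in the RefSeq table. The 3p strand of Mir302a was missing there, so whether Mir302a carries this seed could not be read. The seed of miR-291b ended in A in place of U. That of miR-302c was the same run of letters read from a start 1 base further along. The 6 letters AAGUGC occurred in 7 of the 9 member 3p strands and in 20 of 1738 mature mouse sequences in the table, or 1.15%. The 2 strands that lacked them were miR-293 and miR-367, and the seed of miR-367, AUUGCAC, is that of the miR-92 family. Beyond the seed, miR-302b and miR-302d shared their first 17 bases, and miR-291a and miR-294 their first 11.

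Of the 4 arrays, 2 stood apart from the rest in sex-linked genes or in a platelet gene. Array F, labelled female, gave signals of the Y-linked genes Eif2s3y (6.60) and Kdm5d (5.42) above those of FC (4.78 and 4.50) and below those of the male arrays, together with an Xist signal of 7.80 against 10.81 in FC and about 4.6 in the males (4.55 and 4.60). Array M gave the platelet gene Pf4 at 10.93 against 6.29 to 7.49 on the others. The difference of males from females is therefore given from the arrays without CreERT2 (M minus F) and from those with it (MC minus FC), which hold neither of these arrays. The sorted material held germ cell markers at high signals on every array: the median of 11 markers lay between 8.74 and 9.14, and single markers ran from 4.82 for Fut4 to 16.57 for Dazl, an RNA-binding protein of germ cells. No signal is at 0 on this scale. The pregranulosa marker Foxl2, at 2.98 to 3.04, was near its low end. Of the somatic markers, the 6 of endothelium had median signals of 7.33 (F), 6.07 (FC), 7.94 (M) and 8.07 (MC), and the 5 of Sertoli cells had 5.12, 4.95, 5.02 and 5.91. Gene by gene, 4 of the 5 Sertoli markers were higher in M than in F, with a median difference of 0.71. All 5 were higher in MC than in FC, with a median of 0.53. In such bulk samples, fewer cells of a type and less RNA per cell cannot be told apart.

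The shared miR-290 value was the highest of the 6 and differed more between the sexes than with CreERT2. The female arrays gave log2 signals of 7.18 (F) and 7.05 (FC) and the male arrays 6.59 (M) and 6.37 (MC), with a mean of 6.80. Both female arrays were above both male arrays. It lay above 90.6% of the microRNA genes by mean signal and above 73.8% of all genes, whereas the median of the microRNA genes was highest in MC, at 4.16. The 5 genes of the miR-302 cluster lay far lower, and 4 of them below the median of the microRNA genes.

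Mir302d, whose 3p strand carries the common seed, had the highest signal of the miR-302 cluster, with 4.06 (F), 4.36 (FC), 4.90 (M) and 4.60 (MC). Its mean of 4.48 lay above 61.1% of the microRNA genes, and both male arrays were above both female arrays, the opposite order to that of the shared miR-290 value. Its hairpin is shown because it was the member with the widest range on chromosome 3. The 3p strand is in capitals, and the hairpin lies at chr3:127545624-127545689 on the plus strand.
Mir302d hairpin: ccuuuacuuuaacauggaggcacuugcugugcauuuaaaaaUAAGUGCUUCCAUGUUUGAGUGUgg

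Mir302a, the source of the 5p strand shown above, had signals of 3.85 (F), 3.65 (FC), 3.61 (M) and 3.90 (MC), and the sexes overlapped. Mir302b, with the seed AAGUGCU, had 3.26, 3.30, 3.07 and 3.48 in the same order, again with overlap. Mir302c, with the shifted seed, had 3.18, 3.60, 3.33 and 3.27, so that FC was the highest array and F the lowest. Mir367, whose seed belongs to another family, had 3.22, 3.42, 3.56 and 3.38, with the male arrays within or above the female range. By their means of 3.28 to 3.75, these 4 genes lay above 17.3% to 39.0% of the microRNA genes, and their ranges over the 4 arrays were 0.29 to 0.42. No detection call accompanied the signals used, so whether they stood above the background of the array was not tested. Levels of different genes come from different probes, and the order among the 6 values is a description of the array signals only.

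**Figure D1:**
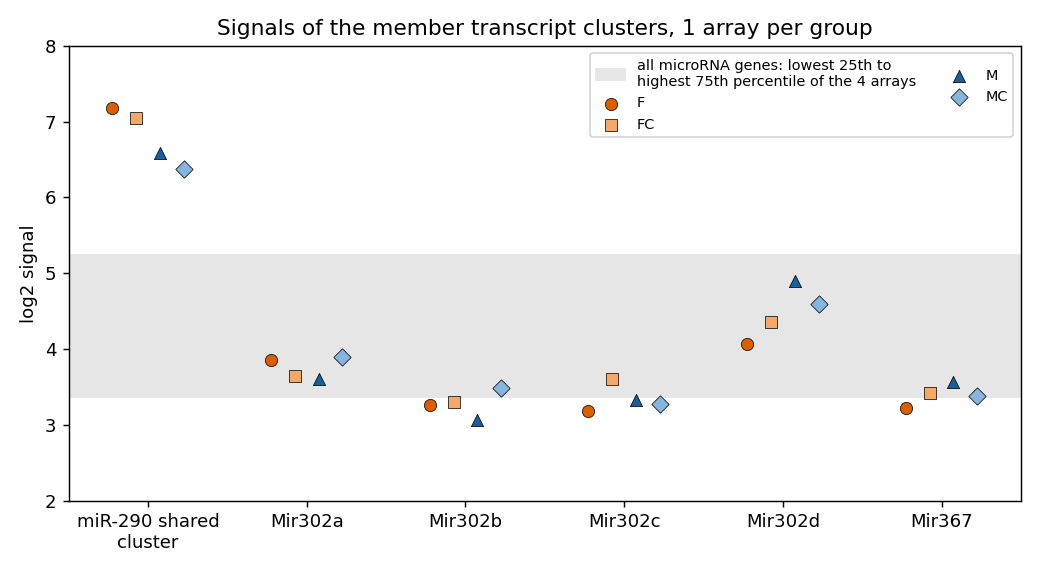
Deposited log2 signal (vertical axis) of the 6 transcript clusters that hold the 10 microRNA genes, on the arrays F, FC, M and MC (1 array each, 1 point per array, no error bars), with 1 column of points per transcript cluster along the horizontal axis. The grey band runs from the lowest lower quartile to the highest upper quartile of the 921 microRNA genes over the 4 arrays. The shared miR-290 value runs from 7.18 in F to 6.37 in MC, Mir302d from 4.06 in F to 4.90 in M, and the other 4 stay between 3.07 and 3.90.

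The arrays with CreERT2 were set against those without it, within each sex, to ask how the members responded to the deletion of Max. No member value differed by 2-fold in either sex. In females this was 0 of 6, beside 1.05% of all genes and 1.74% of microRNA genes past 2-fold in either direction, and in males 0 of 6, beside 0.699% and 2.06%. At 1.5-fold it was again 0 of 6 in females, beside 4.8% of all genes and 7.93% of microRNA genes, and 0 of 6 in males, beside 4.25% and 9.23%. Against such backgrounds a count of 0 is no result about the members. Each of these comparisons holds 1 of the arrays that stood apart. With CreERT2 the shared miR-290 value differed by -0.13 in females (1.09-fold lower) and by -0.22 in males (1.16-fold lower), while the median over all genes was -0.01 and 0.01. Both values lay well within the span of the microRNA genes, of which the central 90% ran from -0.47 to 0.57 in females and from -0.48 to 0.60 in males.

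Across the 5 genes of the miR-302 cluster the differences were less uniform. Their median difference was 0.20 in females, with 4 of 5 above 0, and -0.06 in males, with 2 of 5 above 0, against medians over the microRNA genes of 0.03 and 0.07. The widest were Mir302c in females (0.42) and Mir302b in males (0.41). Mir302b was the only member higher with CreERT2 in both sexes, by 0.04 and 0.41, and the shared miR-290 value the only one lower in both.

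limma, fitted over 30739 features with sex and CreERT2 as terms, gave a common difference of the CreERT2 arrays for the shared miR-290 value of -0.175 (SE 0.0860, n = 2 arrays with and 2 without, adjusted p = 0.684). No member passed the threshold of 0.05, and 0.684 was the lowest adjusted p among the 6. The fit called 0 of 30739 features, while 7.3% of them had an unadjusted p below 0.05 by the same limma fit. With 1 residual degree of freedom, a response in only 1 sex is counted as spread by this fit.

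**Figure D2:**
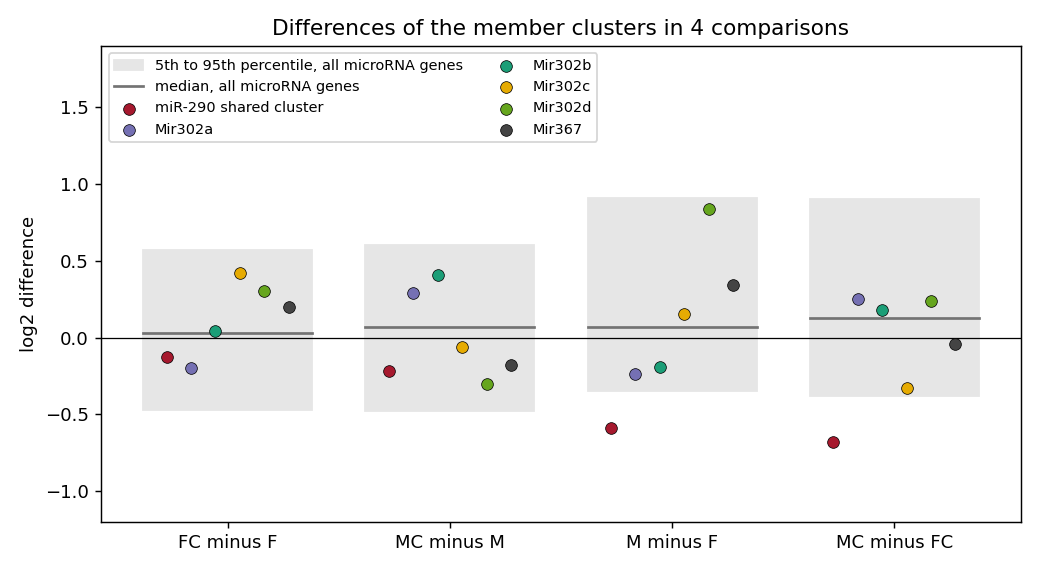
Differences of log2 signal (vertical axis) of the 6 values in the 4 comparisons (horizontal axis) FC minus F, MC minus M, M minus F and MC minus FC, each from 1 array a group and so without error bars, over a grey band from the 5th to the 95th percentile of the microRNA genes and a line at their median. No point reaches a difference of 1 (2-fold), and the shared miR-290 value is at -0.59 and -0.68 in the 2 comparisons of male with female.

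The male arrays were then set against the female arrays. In males the shared miR-290 value was at -0.59 relative to females without CreERT2 (1.51-fold lower) and at -0.68 with it (1.60-fold lower), where the median of all genes was -0.01 and 0.02 and that of the microRNA genes 0.07 and 0.13. Of the microRNA genes, 1.63% had a lower M minus F difference and 1.19% a lower MC minus FC difference. Over all genes the corresponding shares were 3.32% and 3.73%. The comparison that left out both of the arrays set apart above was thus at least as wide in log2 difference, though not in rank among all genes. Nor was it free of array differences. Array FC had the lowest endothelial median (6.07 against 7.33 to 8.07), with 3 of 6 endothelial markers at 2-fold lower in FC minus F. At 2-fold, 0 of 6 member values passed in M minus F, beside 1.33% of all genes and 4.89% of microRNA genes. In MC minus FC it was also 0 of 6, beside 2.4% and 4.34%. At 1.5-fold, 2 of 6 passed in M minus F, the shared miR-290 value and Mir302d, beside 6.58% of all genes and 12.1% of microRNA genes. In MC minus FC 1 of 6 passed, again the shared miR-290 value, beside 9.06% and 13.1%. After cyclic loess the shared miR-290 value was at -0.57 in M minus F and no longer passed 1.5-fold there.

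limma put the common difference, male minus female, of the shared miR-290 value at -0.635 (SE 0.0860, means of 6.48 over 2 male and 7.12 over 2 female arrays, unadjusted p = 0.00557, adjusted p = 0.326), and the value therefore did not pass the test. The same fit called 0 of 30739 features between the sexes, with 13.4% of them at an unadjusted p below 0.05. Its lowest adjusted p over all features was 0.326, and Xist, at -3.25 and -6.21, had this value too. An adjusted p of 0.326 from this limma fit therefore says little about a single gene. Germ cell markers had differences of the same sign as the shared miR-290 value. In M minus F all 11 were below 0, with a median of -0.48, and in MC minus FC 8 of 11 were, with a median of -0.40. The log2 of their summed signal was 16.95 (F), 16.88 (FC), 15.93 (M) and 16.17 (MC). Most of that sum was Dazl alone, with 16.57 (F), 16.53 (FC), 15.25 (M) and 15.56 (MC), so it mainly follows 1 gene. Dppa3, the next strongest marker, was at -0.27 and 0.15. Of the 6 endothelial markers 5 were above 0 in each comparison, with medians of 0.58 and 1.44. Their log2 summed signal was 10.56 (F), 9.96 (FC), 11.06 (M) and 10.94 (MC). All 3 measured erythroid markers were below 0 in both comparisons, with medians of -0.51 and -0.63. By far the strongest of them was Hbb-y, with 15.21 (F), 14.64 (FC), 13.95 (M) and 12.73 (MC). Its differences of -1.26 and -1.91 were wider than those of the shared miR-290 value. Pregranulosa markers were below 0 in 4 of 5 in each, with medians of -0.32 and -0.23. Those of Sertoli cells were above 0 in 4 of 5 and in 5 of 5. A lower value in males was thus not particular to germ cell markers. The part of the cell composition in the miR-290 difference was not tested.

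Among the miR-302 cluster genes, Mir302d was higher in males by 0.84 without CreERT2 (1.79-fold) and by 0.24 with it. The first of these lay above 94.4% of the microRNA genes and rests on the 2 arrays set apart above. limma gave 0.54 for the common difference of Mir302d (SE 0.193, 2 male and 2 female arrays, adjusted p = 0.406). Mir302a, Mir302b, Mir302c and Mir367 had differences of -0.24, -0.19, 0.15 and 0.34 in M minus F and of 0.25, 0.18, -0.33 and -0.04 in MC minus FC, so that each of these 4 had opposite signs in the 2 comparisons. The median of the 5 was 0.15 in M minus F and 0.18 in MC minus FC, with 3 of 5 above 0 in each, close to the medians of all microRNA genes.

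Of the 45 microRNA genes at 2-fold in M minus F, 39 were higher in M and 6 lower, where all genes gave 224 higher and 186 lower. Of the 40 in MC minus FC, 36 were higher in MC and 4 lower, where all genes gave 301 and 436. The median over all 921 microRNA genes depended on the scaling: in M minus F it was 0.07 as deposited and -0.02 after median centring. The shared miR-290 value had the sign of the smaller side in both comparisons, and these splits were not tested. Its 4 signals, centred on their mean, were most like those of Mir224, Mirlet7d, Mir19b-2, Mir5615-1 and Mir7013, at Euclidean distances of 0.177, 0.224, 0.260, 0.297 and 0.310 over the 4 arrays among 918 microRNA genes. Mirlet7d had signals of 8.08 (F), 8.07 (FC), 7.47 (M) and 7.53 (MC). Mir19b-2, a member of the X-linked Mir106a cluster, had 4.89, 4.62, 3.95 and 3.83. Likeness over 4 arrays is a weak measure, and the median profile of the miR-302 cluster was too flat (a range of 0.34) for any such list.

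The annotated neighbours give the signals around each cluster. On chromosome 7, AU018091, the nearest gene with a value upstream of the miR-290 cluster, had 7.93 (F), 7.88 (FC), 7.27 (M) and 7.33 (MC). Like the shared miR-290 value it was lower in males (-0.66 and -0.55), and its differences with CreERT2 were -0.05 and 0.06. limma gave it a common difference between the sexes of -0.605 (SE 0.0880, 2 arrays a sex, adjusted p = 0.326). Myadm, on the far side of the cluster, had 7.78, 7.84, 8.04 and 7.84, with differences between the sexes of 0.26 and 0.00. Nlrp12, an innate immune gene annotated on the minus strand across most of the miR-290 hairpins, had 3.62 to 3.75 and differences of 0.10 and -0.01. Speer9-ps1, a pseudogene beyond AU018091, had 3.62 (F), 3.86 (FC), 3.93 (M) and 3.99 (MC).

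The microRNA genes of the miR-290 cluster with transcript clusters of their own did not follow the shared value, but their signals were low. By mean signal they lay above 26.1% (Mir292b) to 39.7% (Mir290b) of the microRNA genes, and whether they stood above background was not tested. Mir290a had 3.63 (F), 3.61 (FC), 3.61 (M) and 3.51 (MC), and Mir292b had 3.49, 3.33, 3.44 and 3.60, with differences between the sexes of -0.02 and -0.10 for Mir290a and of -0.05 and 0.27 for Mir292b. Mir290b had 3.24 (F), 3.47 (FC), 4.28 (M) and 4.08 (MC), higher in males by 1.04 and 0.61, the opposite sign to the shared miR-290 value. It was the only measured gene of either cluster at 2-fold in any comparison, and under quantile normalization, median centring or cyclic loess it was below 2-fold (0.95 to 0.98). limma gave it 0.825 for the common difference between the sexes (2 arrays a sex, adjusted p = 0.326). Mir292b is annotated on the minus strand, and its 62 bases are the exact reverse complement of a stretch of Mir292. Mir290b is likewise annotated on the minus strand, within the Mir290a hairpin, and its 58 bases are the exact reverse complement of a stretch of Mir290a. The pair is shown with the 3p strands in capitals, Mir290a at chr7:3218626-3218708 on the plus strand and Mir290b at chr7:3218638-3218695 on the minus strand.
Mir290a hairpin: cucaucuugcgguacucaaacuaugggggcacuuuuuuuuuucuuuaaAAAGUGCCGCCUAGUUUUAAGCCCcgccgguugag
Mir290b hairpin: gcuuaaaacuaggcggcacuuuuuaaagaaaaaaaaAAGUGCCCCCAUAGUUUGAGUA

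On chromosome 3, the hairpins of the miR-302 cluster lie on the plus strand, within the annotated span of Larp7, which is on the minus strand and encodes a protein of the 7SK ribonucleoprotein. Larp7 had 13.59 (F), 13.41 (FC), 13.26 (M) and 12.98 (MC), with differences of -0.18 and -0.28 with CreERT2 and of -0.33 and -0.43 between the sexes. None of the 5 microRNA genes inside it was below 0 in all 4 comparisons. Zgrf1, beyond Mir367, had 7.87 (F), 7.36 (FC), 7.94 (M) and 7.50 (MC).

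**Figure D3:**
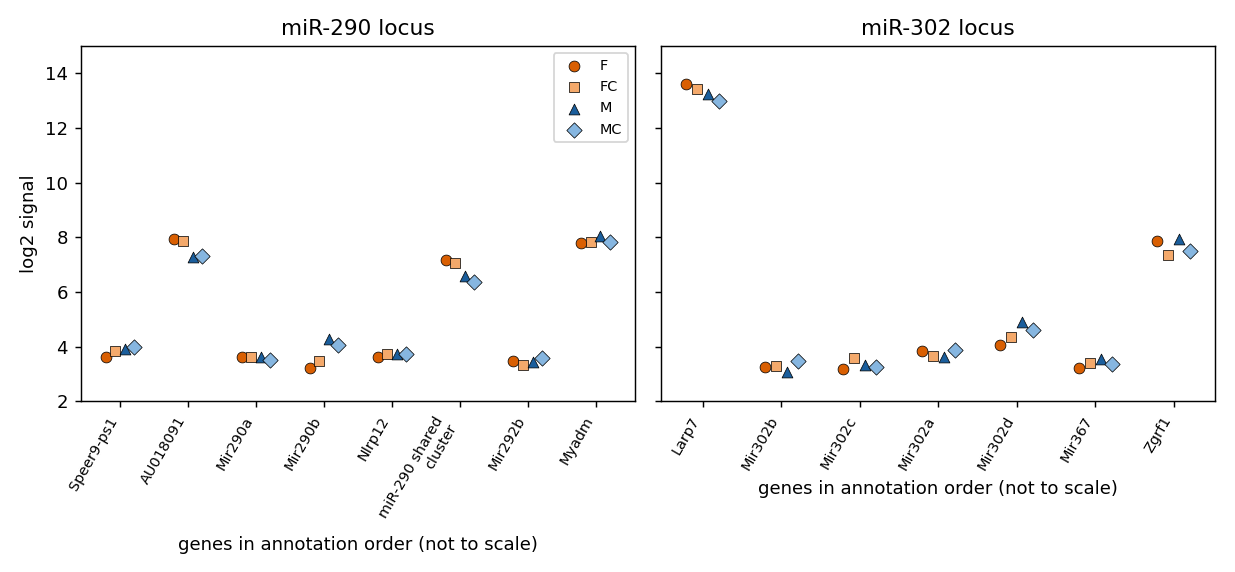
Log2 signal (vertical axis) on the arrays F, FC, M and MC (1 array each, no error bars) of the genes at the miR-290 locus and at the miR-302 locus, in annotation order along the horizontal axis (not to scale). At the miR-290 locus the shared value and AU018091 are lower on both male arrays while Mir290b is higher on them, and at the miR-302 locus Larp7 lies between 12.98 and 13.59, far above the microRNA genes within its span.

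The proteins that make and use microRNAs were read from a list of 21 genes, of which 18 had a transcript cluster of their own. None was at 2-fold in any comparison, beside 0.699% to 2.4% of all genes. Their median difference with CreERT2 was -0.18 in females, with 14 of 18 below 0, and -0.13 in males, with 13 of 18 below 0, beside -0.01 and 0.01 over all genes. These medians moved with the scaling: in females to -0.09 (quantile normalization) and -0.03 (cyclic loess), with 11 of 18 below 0 in both, and in males to 0.005 and 0.0023, with 9 of 18 below 0 in both. Median centring moved them the other way, to -0.205 in females and -0.18 in males, with 14 of 18 below 0 in each. Drosha, the nuclear nuclease, had 12.08 (F), 11.54 (FC), 12.02 (M) and 11.81 (MC), and Dicer1, the cytoplasmic nuclease, had 9.85, 9.65, 9.97 and 9.55. Ago1, an Argonaute, had its widest difference in MC minus FC (0.86), where Ago4, another, had -0.99. Lin28a, which blocks the maturation of let-7, had 6.07 (F), 6.34 (FC), 5.51 (M) and 5.64 (MC), with differences between the sexes of -0.56 and -0.70.

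The 11 transcription factors known to bind the promoters of the 2 clusters in embryonic stem cells all had a transcript cluster of their own. Like the shared miR-290 value, most were lower in males: 10 of 11 in M minus F, with a median of -0.17 against -0.01 over all genes, and 8 of 11 in MC minus FC, with a median of -0.19 against 0.02. Prdm14, a factor that germ cells need for their specification, had 7.51 (F), 7.70 (FC), 6.21 (M) and 6.71 (MC). Both female arrays were above both male arrays, with differences of -1.30 and -0.99. Sall4, a zinc finger factor of pluripotent and germ cells, had 10.40, 10.74, 9.57 and 9.69, with the same order. Nanog had 11.34 (F), 11.38 (FC), 10.65 (M) and 11.73 (MC), so that the sexes overlapped and the only difference at 2-fold was between the male arrays (1.08). Sox2, the partner of Oct4, had 9.09, 9.78, 8.73 and 8.88. With CreERT2 the list had medians of 0.15 in females and 0.12 in males, against -0.01 and 0.01 over all genes. In females 9 of 11 were above 0 and in males 8 of 11, the opposite sign to the shared miR-290 value. Max, the floxed gene, stands in this list and was its lowest member in both (-0.44 and -0.31). Members of this list are germ cell markers themselves (Pou5f1 and Sall4 stand in both lists), and what they share with the cell composition was not tested.

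Of 15 genes known as targets of these microRNAs in stem cells or germ cell tumours, all were measured. Their medians were -0.05 and -0.04 with CreERT2 and 0.00 and -0.10 between the sexes, close to those of all genes. The medians with CreERT2 changed sign with quantile normalization and cyclic loess. Cdkn1a, the inhibitor of G1 cyclin-dependent kinases, had 11.32 (F), 12.20 (FC), 11.14 (M) and 11.10 (MC), with FC alone above the rest. Lefty2, an inhibitor of Nodal signalling, had 5.53, 4.18, 6.01 and 6.01, with FC alone below the rest. Nr2f2, an orphan nuclear receptor also used as a marker of interstitial cells, was higher in males by 1.16 and 1.38, with 8.60 (F), 8.25 (FC), 9.76 (M) and 9.63 (MC). Lefty1, of the same family as Lefty2, had 5.49, 4.69, 5.71 and 5.67, again with FC the lowest. At 2-fold, 1 of 15 was lower in FC minus F, beside 1.05% of all genes in either direction, and 0 of 15 passed in MC minus M, beside 0.699%. In M minus F 1 of 15 was higher, beside 1.33%, and in MC minus FC 2 were higher and 1 lower, beside 2.4%.

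**Figure D4:**
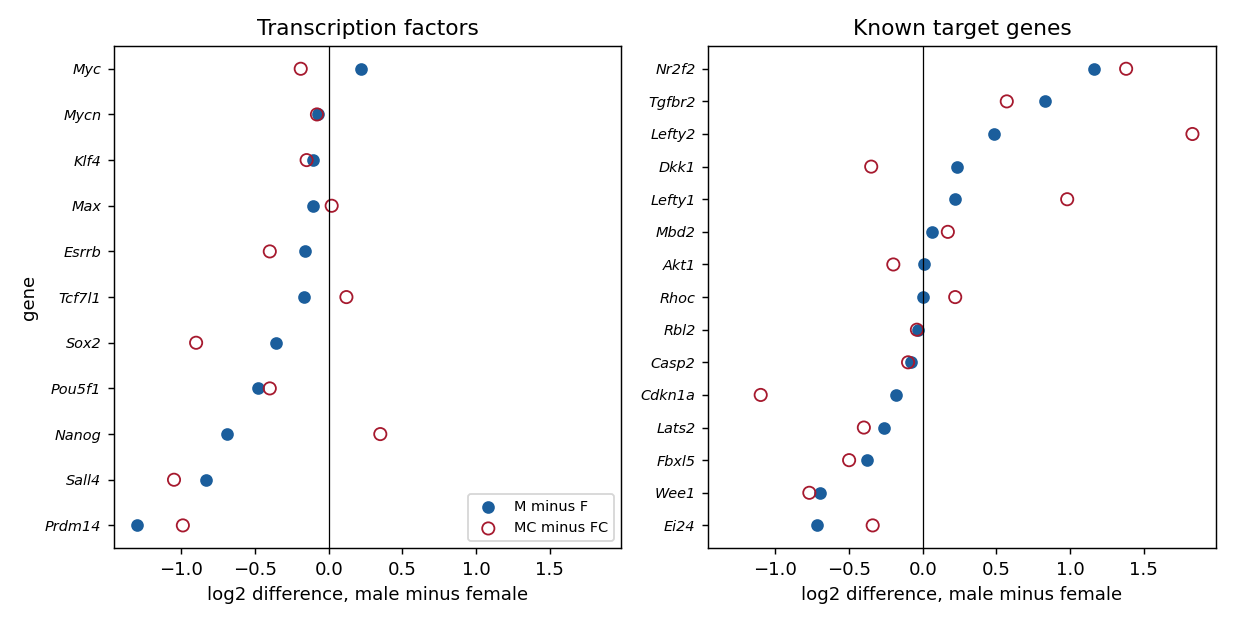
Differences of log2 signal, M minus F and MC minus FC (horizontal axis), for the transcription factors known to bind the 2 promoters and for the known targets, 1 row per gene ordered by M minus F, each from 1 array a group and without error bars. Prdm14 (-1.30 and -0.99) stands at the lower end of the factors, and Nr2f2 (1.16 and 1.38) at the upper end of the targets.

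MicroRNAs with a related seed were measured in part through shared transcript clusters as well. Those related to miR-294, of the miR-17 family, had 2 genes with a value of their own: Mir106b, with 4.04 (F), 3.34 (FC), 3.51 (M) and 3.26 (MC), and Mir20b, with 3.70, 3.19, 3.27 and 3.30, both highest in F. The transcript cluster shared by Mir17hg, Mir17, Mir20a and Mir92-1 was also highest in F, with 7.27, 6.38, 6.50 and 6.10. With CreERT2 it differed by -0.89 in females and -0.40 in males, wider than the shared miR-290 value in both. The other shared transcript clusters of listed genes did not all go the same way. That of Kis2 and Mir106a was at 0.20 in females and 0.10 in males, and that of Mcm7, Mir93 and Mir25 at -0.32 and -0.06. Between the sexes the Kis2 and Mir106a value was at -0.05 and -0.15, whereas Mir19b-2 of the same X-linked cluster was at -0.94 and -0.79. Of the genes that carry the seed of miR-367, Mir363 on the X chromosome had 7.90 (F), 7.41 (FC), 5.09 (M) and 5.37 (MC), with differences between the sexes of -2.81 and -2.04, while those of Mir367 itself were 0.34 and -0.04. The other 3 measured genes with this seed did not share that pattern: Mir32 was at 0.65 and 0.34, Mir92-2 at -0.70 and 0.19, and Mir92b at -0.02 and 0.22, so that in MC minus FC 3 of 4 were above 0. limma gave Mir363 a common difference between the sexes of -2.425 (SE 0.239, 2 arrays a sex, adjusted p = 0.326). Mir350, the only other gene with the seed of miR-291b, had 3.21, 3.32, 3.35 and 3.33.

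The let-7 microRNAs oppose the AAGUGCU microRNAs in embryonic stem cells, and all 12 genes had a transcript cluster of their own. Their medians were 0.06 and 0.04 with CreERT2 and -0.04 and -0.03 between the sexes, near those of all genes. Mirlet7f-1 alone was at 2-fold in both comparisons of the sexes, with 5.73 (F), 6.60 (FC), 4.09 (M) and 4.30 (MC). Its differences between the sexes were -1.64 and -2.30, the same order of the sexes as in the shared miR-290 value. On the same chromosome 13, Mirlet7d was at -0.61 and -0.54 but Mirlet7a-1 at 0.03 and 0.07.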

How the data were processed

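Total RNA from 4 samples of sorted germ cells was labelled with a whole-transcript kit and hybridised to 1 array each. The deposited values are log2 signals of 65956 transcript clusters, between 2.29 and 19.85, given to 2 decimals. Per the study's methods, background was subtracted and robust multiarray analysis was run in R. The labels name Transcriptome Analysis Console without a version, and which of them made the deposited log2 values is not settled. Nor is the array: a GeneChip Mouse Genome array is named in the methods, whereas the labels name the whole-transcript kit and the deposited values are of transcript clusters with microRNA genes among them. If used, robust multiarray analysis evens out the distributions of the arrays, so that a shift of most genes on 1 array would not show. The deposited arrays were not fully even: their medians over all transcript clusters were 3.91 (F), 3.94 (FC), 4.00 (M) and 4.05 (MC). Scanner files were not used here, and depth does not apply: the number of arrays limits the precision.

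Probes were named through the platform annotation and RefSeq (GRCm38.p6), which changed 1212 symbols. Of the transcript clusters, 31292 had 1 gene, 1522 several and 33142 none. Where a gene had several, that of highest mean signal stood for it, and the shared miR-290 cluster was kept as 1 feature (30739 features in all). No p-value was attached to a difference of 2 arrays. limma 3.58.1 in R 4.3.3 (lmFit and eBayes, sex and CreERT2 as terms, 1 residual degree of freedom, two-sided, Benjamini-Hochberg adjustment over all features, threshold 0.05) was used for the common differences after tests on simulated data. Its p-values measure only the spread between these arrays. The main count threshold was 2-fold. Alternatives were quantile normalization, cyclic loess, median centring, the mean of a gene's clusters, a filter at the median signal of 3.97, folds of 1.5 and 3, and in limma a trend of the variance prior, each term alone, and all transcript clusters.

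The members and all gene lists were chosen with earlier results of these data known. Genes named beside the members were the other genes of both loci and their neighbours, the 5 most similar microRNA genes, and of each list up to 4 with the widest difference and any at 2-fold. A few others (Max, the cell type markers, Drosha, Dicer1, Mir350 and the shared clusters of Mir17hg, Mir106a and Mir93) were named after their values were seen. All 4 deposited columns were used.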

Additional observations from a re-analysis of the deposited data

Results flagged for a closer look

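For 4 of the 6 member values the difference with CreERT2 had opposite signs in the 2 sexes, which flagged them. Each sign rests on 1 array against 1, and whether the sexes differ in this was not tested. Mir302a was lower with CreERT2 in females (-0.20) and higher in males (0.29), so that the male difference less the female one was 0.49. Mir302c was at 0.42 in females and -0.06 in males, a difference of -0.48. Mir302d was at 0.30 and -0.30, a difference of -0.60. Mir367 was at 0.20 and -0.18, a difference of -0.38. Opposite signs were found in 42.2% of all genes and in 45.2% of the microRNA genes, beside which 4 of 6 is to be read. The shared miR-290 value and Mir302b had the same sign in both sexes. No group had enough arrays to look for an array that stands apart by a single member's value.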

How the results depend on the processing

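No paired analysis was possible because each group was 1 array and the labels give no replicate numbers, and for the same reason no replicate could be left out. The 32 differences examined were those of the 6 member values, of the miR-302 median and of Mir290b in the 4 comparisons. All kept their sign under 3 scalings (quantile normalization, cyclic loess and median centring). The mean of a gene's transcript clusters left all of them unchanged. As each member value came from 1 transcript cluster, this alternative could not move the member values. The shared miR-290 value ranged from -0.68 to -0.57 in M minus F and from -0.79 to -0.63 in MC minus FC, and Mir302d from 0.69 to 0.84 in M minus F. With CreERT2 the shared miR-290 value was less steady, from -0.16 to -0.05 in FC minus F and from -0.27 to -0.13 in MC minus M. The miR-302 median ranged from -0.12 to -0.06 in MC minus M, from 0.06 to 0.15 in M minus F and from 0.07 to 0.18 in MC minus FC. Mir290b ranged from 0.95 to 1.04 in M minus F and was below 2-fold under the 3 scalings. At a threshold of 1.5-fold, 2 member values passed in M minus F and 1 in MC minus FC, where none passed at 2-fold, beside 6.58% and 9.06% of all genes, and no count differed at 3-fold. Median centring moved the median of all genes in MC minus FC from 0.02 to -0.09, and the share of higher genes among those at 2-fold from 40.8% to 25.8% there and from 54.6% to 39.0% in M minus F. The adjusted p of the shared miR-290 value by limma ranged over its alternatives from 0.171 to 0.390 between the sexes and from 0.684 to 0.995 for CreERT2, and limma called 0 features at an adjusted p under 0.05 in each of its 5 settings, with 4.38% to 7.30% (CreERT2) and 12.2% to 16.3% (sexes) of features at an unadjusted p under 0.05. The signal filter kept 2 of the 6 member values, the shared miR-290 value and Mir302d. With 1 array a group, array and condition cannot be told apart.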
